A study of Rattus norvegicus with 29 samples.

Results

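The PSD-95 family (Dlg1, Dlg2, Dlg3 and Dlg4) and the SAPAP family (Dlgap1, Dlgap2, Dlgap3 and Dlgap4) were examined in arrays of the accumbens shell, which belongs to the ventral striatum, from P rats, which were selected over generations for preferring alcohol. Every probe set that the platform table pairs with exactly 1 of these 8 symbols was taken, which gave 19 of the 31099 probe sets of the array, 11 for the PSD-95 family and 8 for the SAPAP family. The rule uses names only, and the families were proposed with earlier results of these data known. All 19 passed the filter on dim probe sets and were tested. Dlg3, Dlg4 and Dlgap1 have 4 probe sets each, Dlg1 and Dlgap3 have 2, and Dlg2, Dlgap2 and Dlgap4 have 1. Each probe set was kept apart, because RMA values of different probe sets cannot be set against each other as levels.

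RNA from 29 samples was hybridised to 1 Affymetrix rat array each. The groups were Water_only (9 arrays, P rats with no ethanol), Limited_Ethanol (10 arrays, P rats with limited access to ethanol) and Continuous_ethanol (10 arrays, P rats exposed to ethanol continuously). All groups are of the P line, and no age, sex, amount drunk or time of tissue collection was used, since the labels give none. The labels do not tie samples to animals, and p-values therefore cover only the spread among the samples, which may be technical.

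Proteins of the PSD-95 family are scaffolds of the excitatory postsynapse: their PDZ domains bind the tails of NMDA receptor subunits, of auxiliary subunits of AMPA receptors and of adhesion proteins such as neuroligins. Their guanylate-kinase-like domain binds SAPAP proteins, which in turn bind Shank proteins, and Shank proteins bind Homer proteins, so that the families form adjoining layers between receptors at the membrane and the actin cytoskeleton. In the accumbens shell most neurons are medium spiny neurons, whose dendritic spines receive glutamatergic input from cortex, hippocampus, amygdala and thalamus, and Dlgap3 is known in mice for its role at corticostriatal synapses.

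The values are deposited log2 RMA values. Array medians lay between 8.17 and 8.21, and correlations between arrays between 0.986 and 0.998. All 11 measured markers of medium spiny neurons were above the filter in the tissue, with a mean of 11.74 in Water_only, 11.70 in Limited_Ethanol and 11.64 in Continuous_ethanol arrays. Markers of cortical excitatory neurons were measured too: 6 of the 8 listed genes were on the array and above the filter, and their mean was 9.60, 9.68 and 9.70 in the same order. None of these 17 markers passed the threshold in any comparison. With continuous access against water 0 of 11 medium spiny neuron markers and 6 of 6 cortical markers had a higher mean (median changes -0.09 and 0.09). With limited access against water 4 of 11 and 5 of 6 did (median changes -0.02 and 0.06). On the second principal component 5 arrays stood apart, Water_only replicates 2, 5 and 6 and Limited_Ethanol replicates 6 and 7. In tissue RNA, fewer cells of a type and less RNA per cell cannot be told apart.

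None of the 19 probe sets passed an adjusted p of 0.05 in limma between Continuous_ethanol and Water_only (smallest adjusted p = 0.125), where 0.152% of all 21729 tested probe sets passed. At an unadjusted p under 0.05 there were 4 of 19 (21.1%), 2 with a higher and 2 with a lower mean, against 16.1% of all tested probe sets. Between Limited_Ethanol and Water_only 0 of 19 passed (smallest adjusted p = 0.971), as did 0% of all, and 1 (5.26%) had an unadjusted p under 0.05 against 4.44% of all. Between Limited_Ethanol and Continuous_ethanol 0 of 19 passed (smallest adjusted p = 0.526) against 0.00460% of all, and 3 (15.8%) had an unadjusted p under 0.05 against 9.31%. In the test for any difference among the 3 groups 0 of 19 passed against 0.0828% of all, and 4 of 19 (21.1%) had an unadjusted p under 0.05 against 11.6%. The members' shares at an unadjusted p were above those of all tested probe sets but rest on 1 to 4 probe sets. Whether they differ from the background was not tested. The median change over the members was 0.01, 0.02 and -0.01 in the 3 comparisons, and over all tested probe sets 0.00, 0.00 and -0.01. The 95% intervals of the members' log2 differences reached from -0.34 to 0.45 for continuous access against water, from -0.37 to 0.38 for limited access against water, and from -0.37 to 0.39 between the forms of access. The ethanol groups were both compared with the same water arrays, so their differences from water are not independent.

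**Figure D1:**
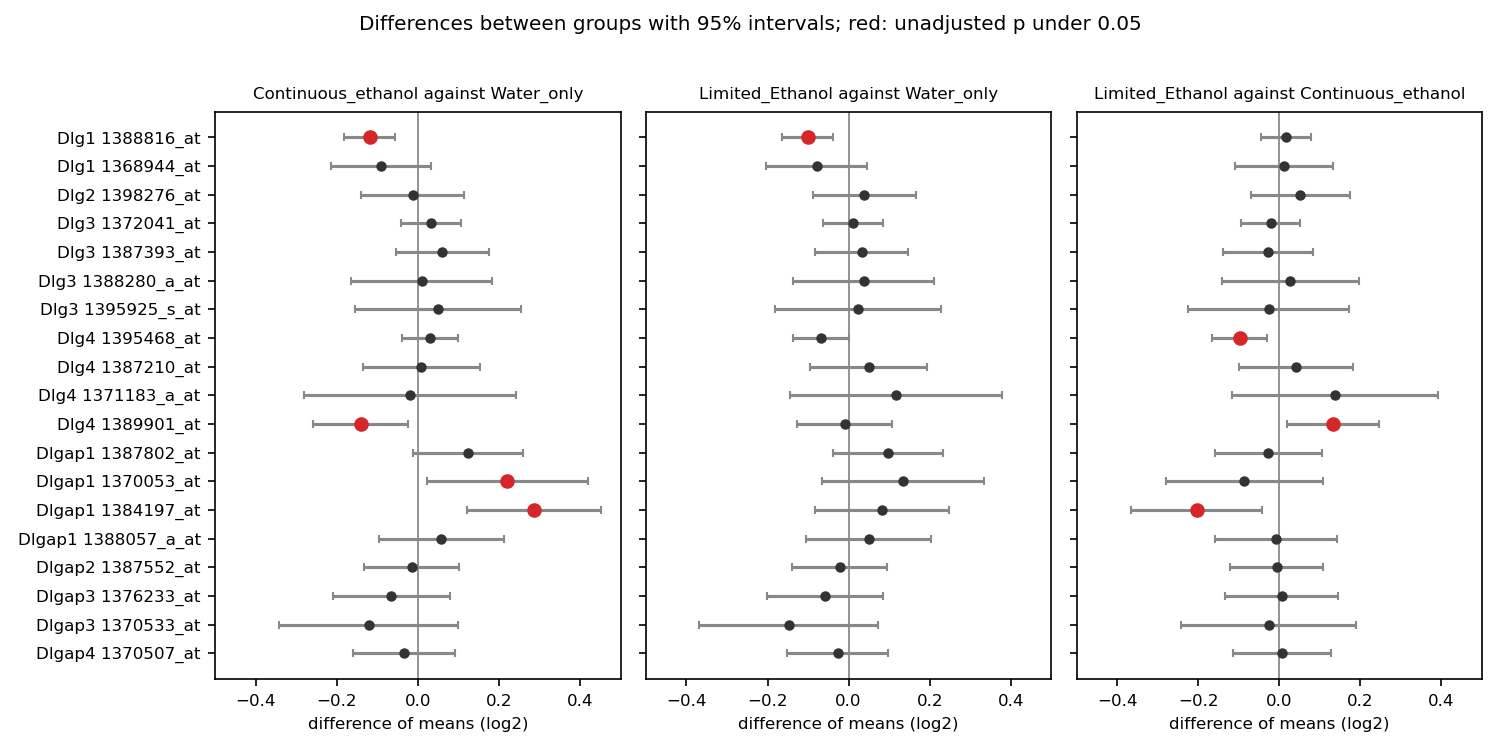
Log2 difference between group means (x axis) for each of the 19 probe sets (y axis) in the 3 comparisons, with 95% intervals from limma; red points have an unadjusted p under 0.05 and black points do not. No probe set passed after adjustment over all tested probe sets, and Dlg1, Dlg4 and Dlgap1 are the genes with red points.

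Among the membrane-associated guanylate kinases, Dlg1 (SAP97), a scaffold that takes part in trafficking AMPA and NMDA receptors, had the smallest unadjusted p. Probe set 1388816_at ranged from 11.74 to 11.92 with a median of 11.80 in Water_only arrays, from 11.66 to 11.78 with a median of 11.71 in Limited_Ethanol arrays, and from 11.57 to 11.79 with a median of 11.69 in Continuous_ethanol arrays. The highest value of all was in Water_only replicate 5 and the lowest in Continuous_ethanol replicate 7, and the groups overlapped by the lowest water arrays. All 10 Continuous_ethanol arrays and all 10 Limited_Ethanol arrays lay below the Water_only mean. The difference from water was -0.12 ± 0.03 (SE) with continuous access (unadjusted p = 0.000606, adjusted p = 0.125) and -0.10 ± 0.03 with limited access (unadjusted p = 0.00272, adjusted p = 0.971), and neither passed the threshold. The forms of access differed by 0.02 ± 0.03 (adjusted p = 0.892, 95% interval -0.04 to 0.08).

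This probe set was among the steadiest on the array: its SD around the group means, 0.0596, was smaller than that of all but 3.76% of tested probe sets. The other Dlg1 probe set, 1368944_at, had means of 10.73 ± 0.10 (SD, n = 9) in Water_only, 10.65 ± 0.09 (SD, n = 10) in Limited_Ethanol and 10.64 ± 0.19 (SD, n = 10) in Continuous_ethanol arrays. Its differences from water, -0.09 ± 0.06 and -0.08 ± 0.06 (SE), had the same sign with adjusted p of 0.456 and 0.972. The deviations of 1388816_at from the group means went with the medium spiny neuron marker score of the array (r = 0.58, rho = 0.65, permutation adjusted p = 0.0121 and 0.00271 over 95 relations of 19 probe sets with 5 array measures, r = 0.58 without the 2 arrays of most extreme score). For 1368944_at r was 0.23 (rho = 0.27, permutation adjusted p = 0.443 and 0.417). Of the 19 member probe sets 1 passed with this score, and the share over all tested probe sets was not computed. That score, the mean log2 deviation of the 11 markers, was 0.05 ± 0.14 (SD, n = 9) in Water_only, 0.01 ± 0.11 (n = 10) in Limited_Ethanol and -0.05 ± 0.12 (n = 10) in Continuous_ethanol arrays, and its part in the Dlg1 values was not tested.

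Dlg2 (PSD-93), which anchors NMDA receptors and potassium channels, showed no difference beyond its spread. Its single probe set ranged from 7.94 to 8.32 in Water_only, from 7.95 to 8.37 in Limited_Ethanol and from 7.89 to 8.35 in Continuous_ethanol arrays. The groups covered nearly the same range. The differences were -0.01 ± 0.06 (adjusted p = 0.941) for continuous access against water, 0.04 ± 0.06 (adjusted p = 0.975) for limited access against water and 0.05 ± 0.06 (adjusted p = 0.810) between the forms of access.

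Dlg3 (SAP102), the family member most known for carrying NMDA receptors in young neurons, had 4 probe sets, none with an unadjusted p under 0.05. Probe set 1372041_at had means of 10.93 ± 0.07 (SD, n = 9) in Water_only, 10.94 ± 0.06 (n = 10) in Limited_Ethanol and 10.96 ± 0.08 (n = 10) in Continuous_ethanol arrays. Its difference of 0.03 ± 0.04 (SE) with continuous access had a 95% interval of -0.04 to 0.11 (adjusted p = 0.679). The 3 remaining probe sets differed by 0.01 to 0.06 with continuous access and by 0.02 to 0.04 with limited access, with adjusted p of at least 0.605. In 2 of them, 1388280_a_at and 1395925_s_at, Continuous_ethanol replicate 4 was the highest array of its group by a wide gap, at 9.61 and 8.77.

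Dlg4 encodes PSD-95 itself, the main scaffold of mature excitatory synapses, and its 4 probe sets did not move alike. Probe set 1395468_at ranged from 10.72 to 10.88 with a median of 10.78 in Water_only, from 10.59 to 10.84 with a median of 10.71 in Limited_Ethanol and from 10.71 to 10.95 with a median of 10.82 in Continuous_ethanol arrays. The Limited_Ethanol arrays lay lowest, and all groups overlapped. The difference between limited and continuous access was -0.10 ± 0.03 (SE, unadjusted p = 0.00578, adjusted p = 0.526), with 9 of 10 Limited_Ethanol arrays below the Continuous_ethanol mean. Against water the differences were 0.03 ± 0.03 with continuous access and -0.07 ± 0.03 with limited access (adjusted p = 0.676 and 0.972).

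Probe set 1389901_at of Dlg4 was lowest in another group. It ranged from 7.24 to 7.72 with a median of 7.46 in Water_only, from 7.30 to 7.61 with a median of 7.45 in Limited_Ethanol and from 7.14 to 7.46 with a median of 7.32 in Continuous_ethanol arrays. Here the Continuous_ethanol arrays lay lowest, again with overlap. Continuous access differed from water by -0.14 ± 0.06 (SE, unadjusted p = 0.0198, adjusted p = 0.230, 9 of 10 arrays below the water mean), and limited from continuous access by 0.13 ± 0.06 (unadjusted p = 0.0246, adjusted p = 0.526, 9 of 10 arrays above). Limited access and water differed by -0.01 ± 0.06 (adjusted p = 0.995). With array SD as covariate the first difference was -0.08 (unadjusted p = 0.190) and the second 0.08 (unadjusted p = 0.151), and with array weights they were -0.10 and 0.09 (unadjusted p = 0.0905 and 0.0769).

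The remaining Dlg4 probe sets, 1387210_at and 1371183_a_at, had differences of 0.01 ± 0.07 and -0.02 ± 0.13 (SE) for continuous access against water, 0.05 ± 0.07 and 0.12 ± 0.13 for limited access against water, and 0.04 ± 0.07 and 0.14 ± 0.12 between the forms of access. Their adjusted p were at least 0.745. The second of them is among the noisiest tested probe sets: its SD around the group means exceeded that of 96.3% of them, and its water arrays alone ran from 7.57 to 8.91.

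**Figure D2:**
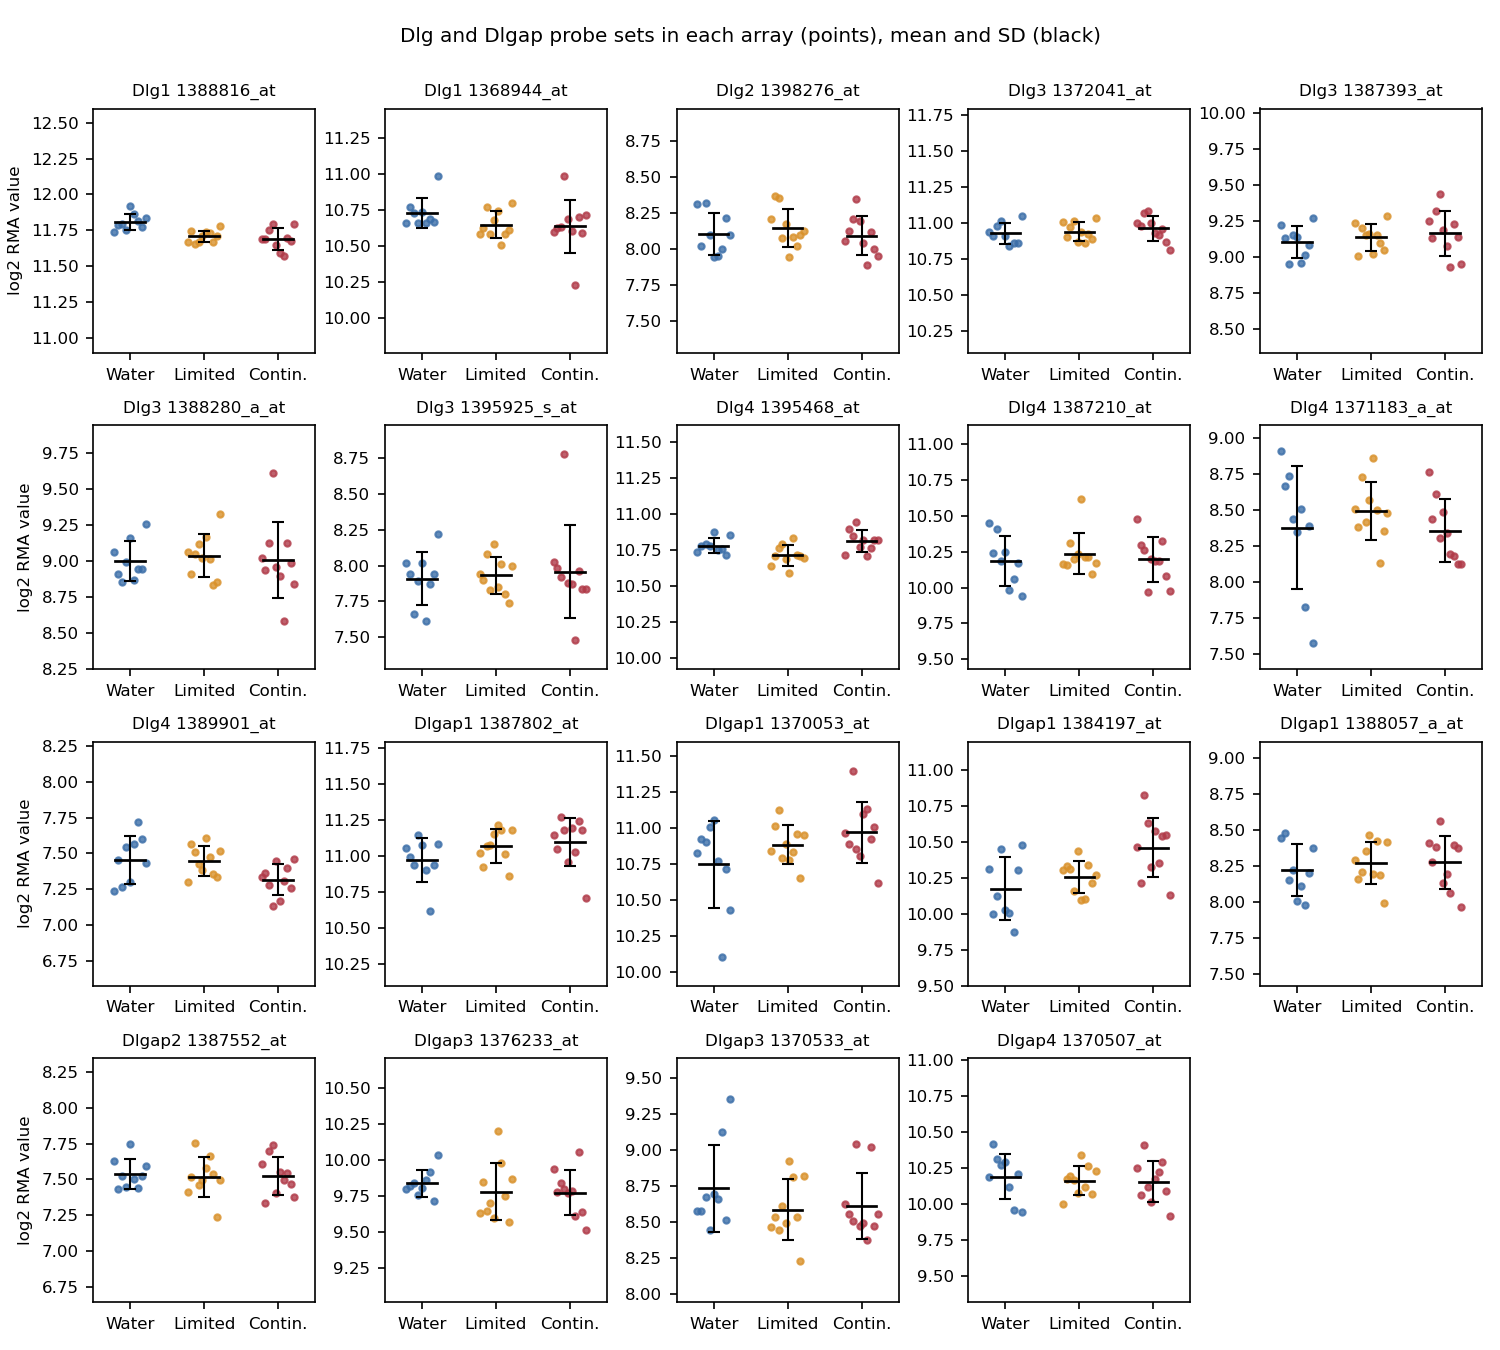
Log2 RMA value (y axis) of each of the 19 probe sets in every Water_only, Limited_Ethanol and Continuous_ethanol array (points, with the group mean and SD in black); each panel spans the same height of the log2 scale. The groups overlap in every panel, and the spread between arrays differs widely between probe sets, with Dlg1 1388816_at and Dlg4 1395468_at tight and Dlg4 1371183_a_at and Dlgap3 1370533_at wide.

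Among the SAPAP genes, Dlgap1 (SAPAP1, also called GKAP) links PSD-95 to Shank. All 4 of its probe sets had a higher mean in Continuous_ethanol and in Limited_Ethanol than in Water_only arrays. Probe set 1384197_at ranged from 9.87 to 10.48 with a median of 10.12 in Water_only, from 10.09 to 10.44 with a median of 10.29 in Limited_Ethanol and from 10.13 to 10.83 with a median of 10.50 in Continuous_ethanol arrays. The Continuous_ethanol arrays reached highest, led by replicate 3, while replicates 1, 2, 5, 7 and 10 of that group lay within the range of the water arrays. The difference between continuous access and water was 0.29 ± 0.08 (SE, a fold of 1.22, unadjusted p = 0.00137, adjusted p = 0.136, 9 of 10 arrays above the water mean). Limited and continuous access differed by -0.20 ± 0.08 (unadjusted p = 0.0148, adjusted p = 0.526), with 10 of 10 Limited_Ethanol arrays below the Continuous_ethanol mean. Limited access and water differed by 0.08 ± 0.08 (adjusted p = 0.972).

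Probe set 1370053_at of Dlgap1 ranged from 10.11 to 11.06 with a median of 10.83 in Water_only, from 10.66 to 11.13 with a median of 10.87 in Limited_Ethanol and from 10.62 to 11.40 with a median of 10.95 in Continuous_ethanol arrays. Water_only replicate 7 was the lowest array by far, and the groups overlapped over most of their range. The difference between continuous access and water was 0.22 ± 0.10 (SE, unadjusted p = 0.0312, adjusted p = 0.265, 9 of 10 arrays above). Without Water_only replicate 7 it was 0.14 (unadjusted p = 0.101), and the number of member probe sets with an unadjusted p under 0.05 in this comparison was 2 in place of 4. With limited access 1370053_at differed from water by 0.13 ± 0.10 (SE, adjusted p = 0.972, 9 of 10 arrays above). Limited and continuous access differed by -0.09 ± 0.10 (adjusted p = 0.798). Probe set 1387802_at had means of 10.97 ± 0.16 (SD, n = 9) in Water_only, 11.07 ± 0.12 (n = 10) in Limited_Ethanol and 11.10 ± 0.17 (n = 10) in Continuous_ethanol arrays, with a difference of 0.12 ± 0.07 (SE) between continuous access and water (adjusted p = 0.351). For 1388057_a_at that difference was 0.06 ± 0.08 (adjusted p = 0.732).

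3 of the 4 Dlgap1 probe sets went with the cortical excitatory neuron marker score of the array, the mean log2 deviation of 6 markers. Around the group means, r with that score was 0.79 for 1387802_at, 0.66 for 1384197_at and 0.75 for 1388057_a_at (rho 0.80, 0.65 and 0.75, permutation adjusted p of at most 0.00253 over the 95 relations), and 0.78, 0.59 and 0.72 without the 2 arrays of most extreme score. For 1370053_at it was 0.36 (rho = 0.24, permutation adjusted p = 0.260 and 0.490). Dlg3 probe sets 1387393_at, 1388280_a_at and 1395925_s_at did so too (r = 0.74, 0.65 and 0.61, permutation adjusted p of at most 0.00174), as did Dlgap2 (r = 0.52, permutation adjusted p = 0.0386, but rho = 0.50 with 0.0690). In all, 7 of the 19 probe sets had such a relation by Pearson's r and 6 by Spearman's rho. The share of all tested probe sets with such a relation was not computed, so these counts cannot be called particular to the members. The score was -0.06 ± 0.18 (SD, n = 9, range -0.34 to 0.11) in Water_only, 0.01 ± 0.13 (n = 10, range -0.16 to 0.21) in Limited_Ethanol and 0.04 ± 0.16 (n = 10, range -0.22 to 0.25) in Continuous_ethanol arrays. With the score as a covariate, added after seeing the data, the difference of 1384197_at between continuous access and water was 0.21 (unadjusted p = 0.00281, adjusted p = 0.199), that of 1370053_at was 0.17 (unadjusted p = 0.0833, adjusted p = 0.401), and that of 1388057_a_at changed sign to -0.02 (unadjusted p = 0.713). Over 14 alternatives, this fit among them, that of 1387802_at ran from 0.05 to 0.14, never with an unadjusted p under 0.05. Probe set 1384197_at also went with the SD of the array (r = 0.57, rho = 0.63, permutation adjusted p = 0.0126 and 0.00511, r = 0.59 without the 2 most extreme arrays), which was 2.16 in Water_only, 2.17 in Limited_Ethanol and 2.18 in Continuous_ethanol arrays. With that SD as a covariate the difference between continuous access and water was 0.17 for 1384197_at (unadjusted p = 0.0290, adjusted p = 0.827) and 0.13 for 1370053_at (unadjusted p = 0.210, adjusted p = 0.931). The difference of 1384197_at between limited and continuous access was then -0.11 (unadjusted p = 0.127), and with array weights -0.13 (unadjusted p = 0.0543). With the score of leptomeningeal markers all 19 probe sets had a negative r, from -0.49 to -0.05, and none passed. That score was 0.19 ± 0.37 (SD, n = 9) in Water_only, -0.07 ± 0.33 (n = 10) in Limited_Ethanol and -0.11 ± 0.57 (n = 10) in Continuous_ethanol arrays.

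**Figure D3:**
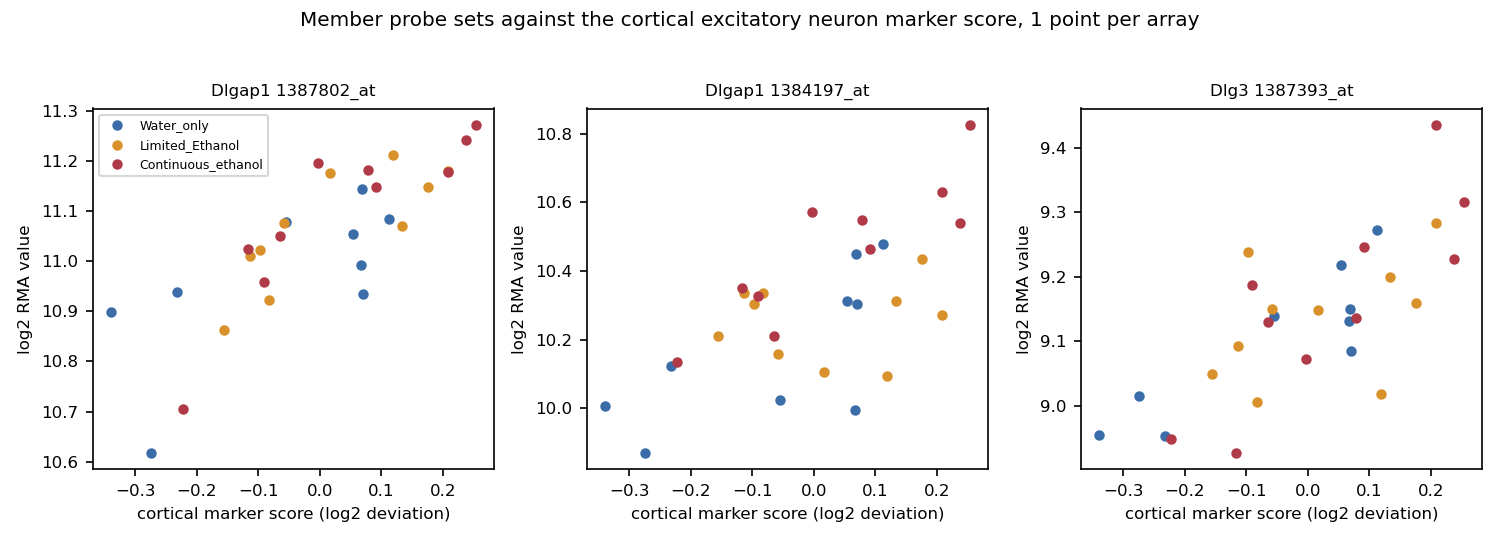
Log2 RMA value (y axis) of 2 Dlgap1 probe sets and 1 Dlg3 probe set against the cortical excitatory neuron marker score of the array (x axis, mean log2 deviation of 6 markers), 1 point per array coloured by group. Over all arrays the values are higher where the score is higher (r around the group means of 0.79, 0.66 and 0.74), and the highest Dlgap1 1384197_at value (10.83) is in Continuous_ethanol replicate 3.

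Dlgap2, Dlgap3 and Dlgap4 had no probe set with an unadjusted p under 0.05. Dlgap2 had means of 7.54 ± 0.10 (SD, n = 9) in Water_only, 7.52 ± 0.14 (n = 10) in Limited_Ethanol and 7.52 ± 0.13 (n = 10) in Continuous_ethanol arrays. Dlgap4 had means of 10.19 ± 0.16 (n = 9), 10.16 ± 0.10 (n = 10) and 10.16 ± 0.15 (n = 10) in the same order. For both genes the adjusted p was at least 0.814 in each comparison, and the 95% intervals stayed between -0.16 and 0.13.

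Dlgap3 (SAPAP3) had 2 probe sets whose ethanol means were both below the water mean without passing. Probe set 1376233_at had means of 9.84 ± 0.09 (SD, n = 9) in Water_only, 9.78 ± 0.20 (n = 10) in Limited_Ethanol and 9.77 ± 0.16 (n = 10) in Continuous_ethanol arrays, with differences from water of -0.07 ± 0.07 and -0.06 ± 0.07 (SE) for continuous and limited access. For 1370533_at these differences were -0.12 ± 0.11 and -0.15 ± 0.11. Adjusted p were at least 0.591. Water_only replicate 9 was the highest array of its group in both probe sets, at 10.04 and 9.35.

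Whether the probe sets of one gene differed in their response was tested on the difference between the brightest and each other probe set within an array, which gave 33 comparisons. The Dlg4 difference of 1395468_at minus 1389901_at ranged from 3.04 to 3.58 with a median of 3.32 in Water_only, from 2.99 to 3.38 with a median of 3.32 in Limited_Ethanol and from 3.33 to 3.81 with a median of 3.47 in Continuous_ethanol arrays. The highest Limited_Ethanol arrays overlapped with the lowest Continuous_ethanol arrays. The means were 3.27 ± 0.13 (SD, n = 10) with limited and 3.50 ± 0.16 (SD, n = 10) with continuous access, a difference of -0.23 (two-sided exact permutation p = 0.000855, 0.0282 adjusted over the 33 comparisons), and this was the 1 of 33 that passed. In limma over all 4431 such pairs of 3273 genes, where 0.0226% passed between these groups, the Dlg4 pair did not pass (-0.23 ± 0.07 SE, adjusted p = 0.332). The exact call was also lost without the 5 arrays apart on the second principal component, and without any 1 of Continuous_ethanol replicate 4 or Limited_Ethanol replicates 1, 2, 3, 5, 6 and 10 (largest adjusted p = 0.0836), while the difference stayed between -0.25 and -0.19 whichever array was left out.

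The Dlgap1 pair 1387802_at minus 1384197_at was next. Its mean was 0.80 ± 0.16 (SD, n = 9) in Water_only, 0.81 ± 0.18 (n = 10) in Limited_Ethanol and 0.64 ± 0.10 (n = 10) in Continuous_ethanol arrays. Continuous access gave the smallest values, with overlap. The differences of -0.16 between continuous access and water and 0.18 between limited and continuous access had exact permutation p of 0.0148 and 0.0148, each 0.163 after adjustment over the 33 comparisons.

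**Figure D4:**
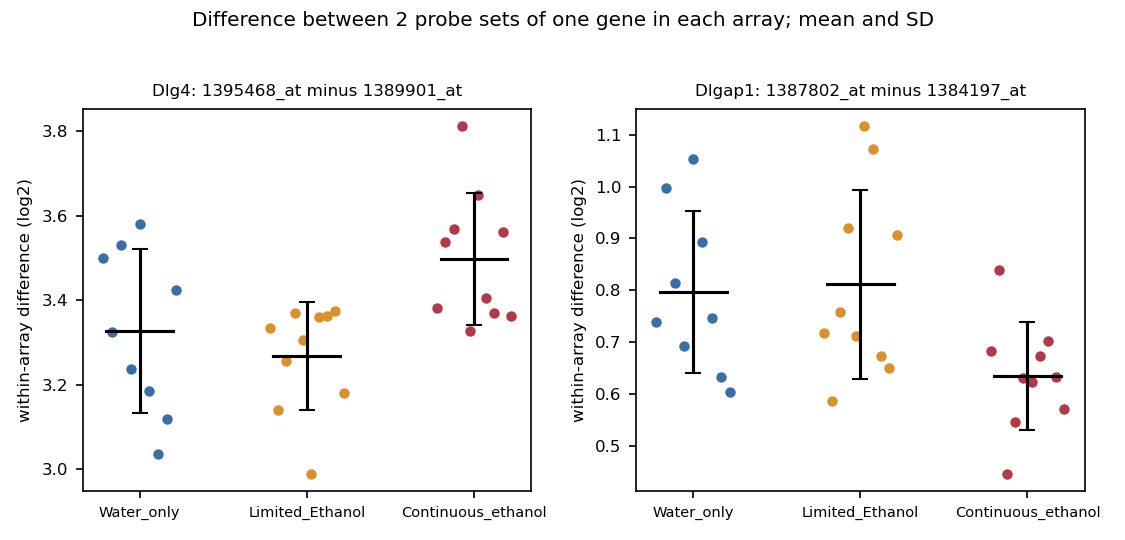
Within-array log2 difference (y axis) between a pair of Dlg4 probe sets (left) and a pair of Dlgap1 probe sets (right) in each array by group, with the mean and SD in black. The Dlg4 difference is larger in Continuous_ethanol (3.50) than in Limited_Ethanol arrays (3.27), and the Dlgap1 difference is smaller in Continuous_ethanol (0.64) than in the other groups (0.80 and 0.81).

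The probe sets of a gene varied together over the 29 arrays in most genes but not in Dlg4. Deviations from the group means were correlated with a permutation adjusted p under 0.05 in 14 of 20 pairs of probe sets of one gene by Pearson's r and in 11 by Spearman's rho. All 6 Dlg3 pairs (r = 0.43 to 0.84), 5 of 6 Dlgap1 pairs (r = 0.22 to 0.69 over all 6), the Dlg1 pair (r = 0.56) and the Dlgap3 pair (r = 0.72) were among the 14. The median r over the 20 pairs was 0.58. Over all 4431 pairs of a brightest and another probe set of a gene it was 0.29. The sets are unlike, since the 20 also hold pairs without the brightest probe set. The share of such pairs passing over all genes was not computed, so the count cannot be called particular to the members. In Dlg4 the pair 1387210_at and 1371183_a_at had r = 0.72 (rho = 0.71, permutation adjusted p = 4.00e-05 and 0.000280, r = 0.68 without the 2 arrays most extreme in 1387210_at). Its other 5 pairs had r from -0.37 to -0.09, with permutation adjusted p of at least 0.0627, so that neither 1395468_at nor 1389901_at followed the rest.

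Between genes, the brightest probe sets of the 8 members gave 28 pairs, with r from -0.14 to 0.57, a median of 0.24 and 22 positive values. Over all 64156128 pairs of genes the median r was 0.01, with quartiles of -0.18 and 0.21. By Pearson's r 3 pairs passed: Dlgap1 with Dlgap4 (r = 0.57, rho = 0.49, permutation adjusted p = 0.0195 and 0.0776), Dlgap1 with Dlgap2 (r = 0.56, rho = 0.55, permutation adjusted p = 0.0195 and 0.0580) and Dlg3 with Dlgap1 (r = 0.51, rho = 0.43, permutation adjusted p = 0.0448 and 0.0908). None passed by Spearman's rho. Without the 2 arrays farthest from the median of the first gene named in each pair, r was 0.36, 0.54 and 0.36. Leaving out extreme arrays narrows the range and can lower r by itself, so this cannot tell what the relations rest on. Without the 5 arrays apart on the second principal component r was 0.58, 0.53 and 0.61, and the first and the third passed (permutation adjusted p = 0.0368 and 0.0353) while the second did not (0.0637). All arrays share the normalization and the marker scores given above, whose part in these correlations was not tested.

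**Figure D5:**
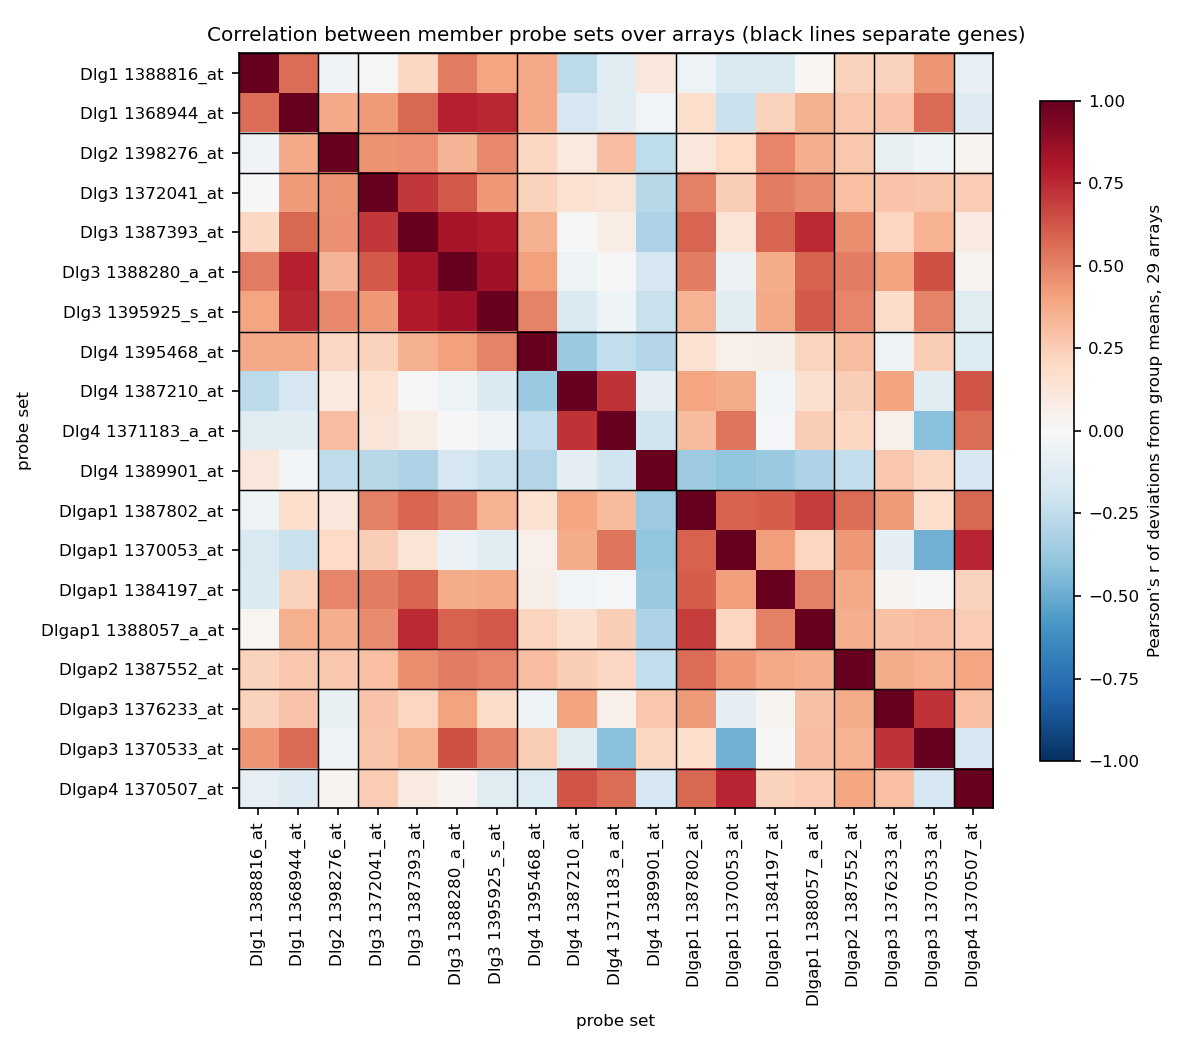
Pearson's r between all pairs of the 19 probe sets (both axes), computed over 29 arrays on deviations from the group means; black lines separate genes. Dlg3 forms a block of positive values from 0.43 to 0.84, Dlg4 splits into separate patterns, and Dlgap4 has r = 0.57 with the brightest Dlgap1 probe set.

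Among the brightest probe sets Dlgap1 with Dlgap4 was the pair of highest Pearson's r, a relation that did not pass by rank. With each gene's probe sets averaged, Dlg1 with Dlg3 was highest (r = 0.71, rho = 0.38), and Dlgap1 with Dlgap4 had r = 0.60 (rho = 0.41). For Dlgap1 and Dlgap4 the 250 bases before the annotated starts are shown (RefSeq sequences, build GRCr8, chr9:117613834-117614083 and chr3:165584110-165584359, both on the + strand, capitals marking motif matches). Which start is used in the accumbens was not measured.
Dlgap1: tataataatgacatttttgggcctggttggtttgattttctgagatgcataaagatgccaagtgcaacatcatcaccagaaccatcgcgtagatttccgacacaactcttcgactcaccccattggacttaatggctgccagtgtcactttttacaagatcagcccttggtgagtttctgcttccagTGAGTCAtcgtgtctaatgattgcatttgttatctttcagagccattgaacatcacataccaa
Dlgap4: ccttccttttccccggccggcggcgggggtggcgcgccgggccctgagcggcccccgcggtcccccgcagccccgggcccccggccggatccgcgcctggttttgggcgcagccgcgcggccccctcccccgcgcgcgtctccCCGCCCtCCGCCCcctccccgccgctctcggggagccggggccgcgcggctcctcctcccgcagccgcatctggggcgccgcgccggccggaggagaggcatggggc
The windows are unlike in composition. That of Dlgap1 is 42.0% G or C with 5 CG pairs, and that of Dlgap4 is 84.4% G or C with 40 CG pairs, above 99.8% of 33469 promoter windows, whose median was 51.2%. Both strands were searched for 5 motifs. The AP-1 motif TGACTCA occurs once in the Dlgap1 window, as its reverse complement, and in 4.05% of all windows; the GC box GGGCGG occurs 2 times in the Dlgap4 window, also as its reverse complement, and in 30.5% of all. Neither window holds the TATA box TATAAA, the CRE TGACGTCA or the E-box CACGTG (12.9%, 1.59% and 5.59% of all windows). These windows share none of the 5 motifs, and a match is a description of letters only.

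For each member the 2 genes whose deviations were most like those of its brightest probe set, among 11320 genes over 29 arrays, were taken as a description. Dlgap3 was nearest to Shank3 (r = 0.88), which encodes a Shank scaffold, and to Git1 (r = 0.88), which encodes a GTPase-activating protein for Arf proteins. Dlgap1 was nearest to Ext1 (r = 0.88), an enzyme of heparan sulfate synthesis, and to Cck (r = 0.85), the neuropeptide cholecystokinin. Dlgap4 was nearest to Fbxo41 (r = 0.84), which encodes an F-box protein, and to Camk2n1 (r = 0.81), which encodes an inhibitor of CaMKII. Dlgap2 was nearest to Mpped1 (r = 0.72) and Sgip1 (r = 0.71). In the PSD-95 family Dlg1 was nearest to Atp6ap1l (r = 0.75) and Uvrag (r = 0.75), and Dlg2 to Klhl18 (r = 0.73) and Mphosph8 (r = 0.72). Dlg4 was nearest to Rad51c (r = 0.71) and Arfgef2 (r = 0.68), and Dlg3 to Calcoco1 (r = 0.68) and Klc1 (r = 0.67). Without the 5 arrays apart on the second principal component these r lay between 0.54 and 0.89.

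Of the partners of the families, 4 lists were examined, each gene by its brightest tested probe set. No gene of them passed in any comparison on that probe set: 0 of 17 tested membrane partners of the PSD-95 family (receptors, their auxiliary subunits and adhesion proteins), 0 of 17 cytosolic partners, 0 of 7 SAPAP partners (Shank and Homer proteins among them) and 0 of 11 enzymes that attach or remove palmitate. The median changes with continuous access against water were 0.05, -0.01, -0.02 and -0.00, beside 0.00 over all tested probe sets, and with limited access against water 0.05, 0.00, -0.03 and 0.00. Between limited and continuous access they were 0.01, 0.02, 0.02 and -0.02, beside -0.01 over all.

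Among the membrane partners the smallest p with continuous access against water were those of the neuroligin genes, adhesion proteins of the postsynapse: Nlgn1 differed by 0.16 ± 0.07 (SE) and Nlgn3 by -0.15 ± 0.06 (adjusted p = 0.227 and 0.249). The Nlgn3 probe set is of the x_at kind, which can hybridise to other transcripts. Between limited and continuous access Nlgn3 differed by 0.17 ± 0.06 and Cacng3, an auxiliary AMPA receptor subunit gene, by 0.11 ± 0.06 (adjusted p = 0.526 and 0.561). Against water with limited access, Grin2a, an NMDA receptor subunit gene, differed by 0.34 ± 0.25 and Cacng3 by 0.08 ± 0.06 (adjusted p = 0.972 each).

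Among the cytosolic partners Cask, a related scaffold kinase gene, and Fyn, a tyrosine kinase gene, differed by 0.12 ± 0.05 and 0.11 ± 0.04 (SE) with continuous access against water (adjusted p = 0.217 and 0.227). Tiam1 and Lin7a with limited access against water differed by -0.06 ± 0.04 and 0.17 ± 0.17 (adjusted p = 0.972 each), and Cask and Kalrn between limited and continuous access by -0.09 ± 0.05 and 0.11 ± 0.06 (adjusted p = 0.554 each). Among the palmitoylation enzymes Lypla1, a thioesterase gene, and Zdhhc2, a palmitoyltransferase gene, differed by 0.12 ± 0.05 and 0.10 ± 0.05 with continuous access against water (adjusted p = 0.247 and 0.292). With limited access against water Zdhhc3 and Zdhhc2 differed by 0.03 ± 0.03 and 0.04 ± 0.05 (adjusted p = 0.972 each), and between limited and continuous access Lypla1 and Abhd17c by -0.12 ± 0.05 and -0.10 ± 0.05 (adjusted p = 0.526 and 0.549).

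Among the SAPAP partners Shank3 differed by -0.12 ± 0.06 and Homer3 by -0.09 ± 0.07 (SE) with continuous access against water (adjusted p = 0.308 and 0.528). With limited access against water Homer1 and Homer3 differed by 0.06 ± 0.05 and -0.07 ± 0.07 (adjusted p = 0.972 each), and between limited and continuous access Homer1 and Shank3 by 0.08 ± 0.05 and 0.06 ± 0.06 (adjusted p = 0.605 and 0.749). Homer1 was the 1 listed partner with another probe set that passed. Its probe set 1370454_at fell by 0.78 ± 0.11 (SE) and its probe set 1370997_at rose by 0.78 ± 0.15 with continuous access against water (adjusted p = 0.000114 and 0.0169). The fall passed whichever array was left out (largest adjusted p = 0.000500), and the rise did not pass without Water_only replicate 5 (adjusted p = 0.0527), in the fit with array SD as covariate (0.195), or when the 5 arrays that stood apart were left out (0.0883). Between limited and continuous access 1370454_at was higher by 0.62 ± 0.10 with limited access (adjusted p = 0.0340), a call lost in 14 of the 29 fits that left out 1 array (largest adjusted p = 0.115). Those arrays were Continuous_ethanol replicates 1, 2, 4, 6, 8, 9 and 10, Limited_Ethanol replicates 3, 4, 6, 7 and 10, and Water_only replicates 3 and 4. It was also lost with the replicate block (adjusted p = 0.125), with the 3 prime minus 5 prime signal or array SD as covariate (0.129 and 0.185) and without the 5 arrays apart (0.628). With limited access against water 1370454_at differed by -0.17 ± 0.11 and 1370997_at by 0.65 ± 0.15 (SE, adjusted p = 0.972 and 0.581). Limited and continuous access differed by -0.13 ± 0.15 in 1370997_at (adjusted p = 0.802). Homer1 probe sets 1368319_a_at and 1370656_a_at differed by -0.00 ± 0.09 and -0.01 ± 0.08 with continuous access against water (adjusted p = 0.990 and 0.971). Probe sets 1370454_at and 1370997_at were chosen after their values were seen.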

How the data were processed

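Total RNA of 29 accumbens shell samples was hybridised as biotinylated cRNA, 1 array each. The deposited values are log2 expression values that the authors made with RMA (background correction, quantile normalization, summary over probes), as the submitters' processing notes say. Their range of 4.04 to 16.04 gave the log base, and the RMA version was not given in the sources used here. The number of arrays limits the precision. RMA makes array distributions nearly equal, so a shift of all transcripts together is not seen. The series' design text gives 10 samples a group, and 1 Water_only sample was not analysed here. Of 31099 probe sets the platform annotation, which can be old, names 20832 by 1 symbol, 436 by several and 9831 by none; 20764 symbols and all 8 members matched the gene table of assembly GRCr8.

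The 57 control probe sets and the dimmest 30 percent (mean at or under 6.86) were left out, and 21729 probe sets were tested in 1 fit with group as its only factor (limma 3.58.1, lmFit and eBayes, R 4.3.3), two-sided, with Benjamini-Hochberg adjustment over all of them and a threshold of 0.05. Changes carry their SE and single means their SD between arrays. Within-array differences of probe sets were tested by exact permutation of group labels (scipy 1.17.1, numpy 2.4.6), and correlations of deviations from group means by 100000 permutations, adjusted within each family named. The scripts were tested on simulated data. Every member probe set is reported, in full where an unadjusted p was under 0.05 or the probe set is the gene's brightest; of each list, genes past the threshold and the 2 of smallest p per comparison are named. The members and lists were chosen with earlier results of these data known.

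Groups compared share replicate numbers in their titles. The deviations of same-numbered arrays had a median r of 0.08 (28 pairs, r from -0.24 to 0.34, 12 over 0.1). Arrays of different numbers were not compared in this way, so whether the numbers tie samples together was not settled. The main fit did not take the numbers as pairs, and a fit with the replicate number as a block was among the alternatives. Alternatives were other filters, normalizations, priors, weights, blocks and covariates and leaving out arrays.

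The marker lists besides those named above were of striatal interneurons, oligodendrocytes, astrocytes, microglia, endothelial and mural cells, and leptomeninges. On brightest probe sets, the endothelial gene Slc2a1 fell by 0.21 with continuous access against water (adjusted p = 0.0492), and no other marker passed in any comparison. Median changes of these lists against water were 0.07, -0.01, -0.04, -0.01, -0.17 and -0.34 with continuous access, 0.07, -0.01, -0.06, -0.01, -0.09 and -0.28 with limited access, and -0.01, -0.00, -0.01, 0.01, 0.08 and 0.04 between limited and continuous access.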

Additional observations from a re-analysis of the deposited data

Results flagged for a closer look

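In 6 of 57 sets of values (19 probe sets in 3 groups) the highest or lowest array lay apart from the rest of its group by a gap that is large for the group's range, where chance gives about 1 in 20. They came from 5 arrays. That chance share holds for independent, normally distributed values, while probe sets of one gene can vary together. The share over all tested probe sets was not computed, so the count cannot be called particular to the members. For Dlg1 1368944_at, Water_only replicate 9 stood at 10.99, with the next array at 10.77, and Continuous_ethanol replicate 7 at 10.23, with the next at 10.59. For Dlg3, Continuous_ethanol replicate 4 stood at 9.61 in 1388280_a_at and at 8.77 in 1395925_s_at, with the next arrays at 9.12 and 8.03. For Dlg4 1387210_at, Limited_Ethanol replicate 6 stood at 10.62, with the next array at 10.31. For Dlgap1 1387802_at, Water_only replicate 7 was the lowest at 10.62, with the next array at 10.90. None of these probe sets had an unadjusted p under 0.05 between groups.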

How the results depend on the processing

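The number of member probe sets past the adjusted threshold was 0 in every comparison under each of 14 alternatives (13 for the test among the 3 groups) and with each of the 29 arrays left out. With the replicate block it was 0 as well, and the smallest adjusted p of a named change was 0.0955, for Dlgap1 1384197_at with continuous access against water; the block changed no call of a member, and it removed the Homer1 call between limited and continuous access (adjusted p = 0.125). The nearest approach with 1 array left out was an adjusted p of 0.0611 for that probe set and 0.0618 for Dlg1 1388816_at, whose changes ranged from 0.25 to 0.32 and from -0.13 to -0.10. None of the 8 member changes with an unadjusted p under 0.05 reversed its sign. Of all 57 member changes 29 did so under at least 1 alternative or array left out, none of them over 0.12 in size. Over the alternatives that of Dlgap1 1384197_at ran from 0.17 to 0.30 and that of Dlg1 1388816_at from -0.13 to -0.09. Counts at an unadjusted p under 0.05 ran from 1 to 4, from 1 to 2 and from 1 to 3 over the alternatives in the 3 comparisons, and from 2 to 5, from 1 to 2 and from 2 to 3 with 1 array left out. The 1 difference between probe sets of one gene that passed became 0 without the 5 arrays apart on the second principal component and 0 in limma over all genes, and was 0 to 1 with 1 array left out. The correlations between members that passed were 3, became 2 without the 5 arrays, and 9 with each gene's probe sets averaged; the cause was not tested.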
